A study of Mus musculus with 24 samples.

Results

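Liver RNA of mice given HQHF, a formula that the labels name only by these letters, on a high-fat diet was compared with liver RNA of mice kept on a normal diet, to ask which genes still stood apart from normal diet under the formula. The comparison used 6 of the series' 24 samples: long RNA libraries of normal-diet replicates 1, 3 and 4 and of formula replicates 1, 2 and 4. Libraries were selected on the measured level of Alb, the albumin transcript of hepatocytes, at a limit of 1000 CPM (counts scaled to a common library total). The kept normal-diet libraries held 58140, 92210 and 72770 CPM of Alb and the kept formula libraries 42230, 57910 and 64220 CPM. Normal-diet replicate 2, at 46.4 CPM, and formula replicate 3, at 0.743 CPM, were left out. Alb stayed among the genes tested, and its own test is not read here. Male wild-type C57BL/6 mice received a normal diet, a high-fat diet, or a high-fat diet with HQHF given by gavage after 12 weeks of high-fat feeding. All 3 groups are wild type and untreated otherwise as far as the labels say. The study design names 9 mice per group and low, medium and high doses of HQHF, and the labels do not tie these libraries to a dose, to a time of day of collection or to the mice's age at collection. Each mouse carries a batch code of its own, so code and mouse cannot be told apart. Long RNA libraries were prepared with a stranded total RNA kit and removal of ribosomal RNA from whole liver.

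The genes followed here belong to 4 systems of the liver. Interferons bind receptors that activate STAT factors, which join IRF9 to switch on antiviral genes through the interferon-stimulated response element. In the circadian clock, CLOCK and BMAL1 drive their own repressors, the PER and CRY proteins, and the output factors DBP and TEF, which time liver metabolism over the day. SREBP factors drive the enzymes of cholesterol and fatty acid synthesis, and the SR and hnRNP proteins bind RNA to steer splicing. In whole liver, fewer cells of a type and less RNA per cell cannot be told apart.

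The 6 libraries held 40835130 to 45176775 counts each, and the 10 liver libraries that entered the model, with high-fat replicates 1 to 4, held 36198931 to 46454404. All 16 hepatocyte markers were above 0 in each of the 6, and together made up 13 to 16.1% of counts in the normal-diet libraries and 9.43 to 13.5% in the formula libraries. Alb, which chose the libraries, is among these markers and gives a large part of that share. The share is thus no separate check of the selection. The 13 transcripts of the mitochondrial genome made up 5.22 to 5.99% of counts under normal diet and 3.36, 5.65 and 2.4% in formula replicates 1, 2 and 4. Genes of pancreatic acinar cells took 0.219% of counts in normal-diet replicate 1 and at most 0.00278% in the other 9 libraries. The adipocyte list took at most 0.00937% of counts in any of the 6 and 0.0649% in high-fat replicate 3, which was kept in the model and in the comparisons with high fat.

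No gene differed between formula and normal diet at an adjusted p under 0.05. The test was edgeR's quasi-likelihood test with Benjamini-Hochberg adjustment over 13832 genes, and percent called was 0. The smallest adjusted p was 0.228, which 11 genes shared. At an unadjusted p under 0.05 stood 1008 genes, or 7.29%, of which 512 were higher and 496 lower under the formula. Without the scaling for composition (TMM, the trimmed mean of M values), that split was 538 higher to 241 lower. DESeq2 on the same counts called 72 genes, 46 higher and 26 lower, and 18 of them belong to the 4 lists described below. In the same edgeR fit the high-fat mice differed from normal diet at 3625 genes, or 26.2%, and the comparisons share the normal-diet libraries. TMM factors were 1.2 to 1.42 in the high-fat libraries, 0.763 to 0.892 under normal diet and 0.823 to 0.939 under the formula. Comparisons with the high-fat libraries, here and below, therefore depend on this scaling. Other scalings were run only for formula against normal diet.

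The count of 0 is no statement that the livers were alike. The 95% interval of the log2 fold change reached a median of 0.55 to either side of the estimate, and for 8808 genes the whole interval lay within 1 of 0. By estimate alone 607 genes stood at least 2-fold apart. The 3 formula libraries lay wholly above the 3 normal-diet libraries at 1162 genes, or 8.40% of those tested, and wholly below at 929 genes, or 6.72%. The number at an unadjusted p under 0.05 was 498 without formula replicate 1, 659 without normal-diet replicate 3, 1264 without normal-diet replicate 4 and 1472 without formula replicate 4.

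Among the genes with the smallest p, which were chosen after their values were seen, Zbtb48, a zinc finger protein that binds telomeres, came first. It stood at 3.81, 4.56 and 4.41 CPM in normal-diet replicates 1, 3 and 4 and at 13.6, 9.81 and 11.6 CPM in formula replicates 1, 2 and 4, a log2 difference of 1.45 ± 0.21 (SE, adjusted p = 0.228 by edgeR). CPM here and below are on library sizes scaled by TMM. All 3 formula libraries also lay above the 4 high-fat libraries, which spanned 4.74 to 7.72 CPM, and the difference from high fat passed at an adjusted p of 0.0136 by edgeR. Gadd45a, a stress-induced inhibitor of cell growth, was at 0.525, 0.564 and 0.635 CPM under normal diet and at 1.46, 2.92 and 1.67 under the formula, against 3.16 to 4.49 in the high-fat livers. Tmem64 and Cpeb4, the latter a regulator of poly(A) tails, lay below normal diet in each formula library, with log2 fold changes of -0.76 and -0.90. On high fat they stood at -0.70 and -1.05 from normal diet (adjusted p = 0.0042 and 0.00261 by edgeR), and formula overlapped high fat for both. The chemokine gene Ccl21b had no read in the 3 normal-diet libraries and 41 in the 3 formula libraries, at least 13.3-fold higher against a floor of 3 reads over the group. The 4 high-fat libraries held 91 reads of Ccl21b and overlapped the formula. Its counts were identical to those of the near copy Gm10591 and cannot be assigned to either.

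The 4 gene lists lay to different sides of normal diet. Over the genes tested in each, the median log2 fold change was 0.48 for interferon genes, 0.31 for clock genes, -0.32 for lipid synthesis genes and -0.25 for splicing genes, beside 0.02 over all genes. Library by library, the median difference of the interferon list from the normal-diet mean was 0.60, 0.51 and 0.42 in formula replicates 1, 2 and 4 and between -0.11 and 0.10 in the normal-diet libraries. For lipid synthesis it was -0.42, -0.45 and -0.05, so that formula replicate 4 lay within the normal-diet range of -0.10 to 0.22 and the other 2 lay below it. As a share of library totals, the interferon list took 0.288 to 0.303% of counts under normal diet. It took 0.293, 0.313 and 0.349% in formula replicates 1, 2 and 4, so replicate 1 lay within the normal-diet range by that measure.

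**Figure D1:**
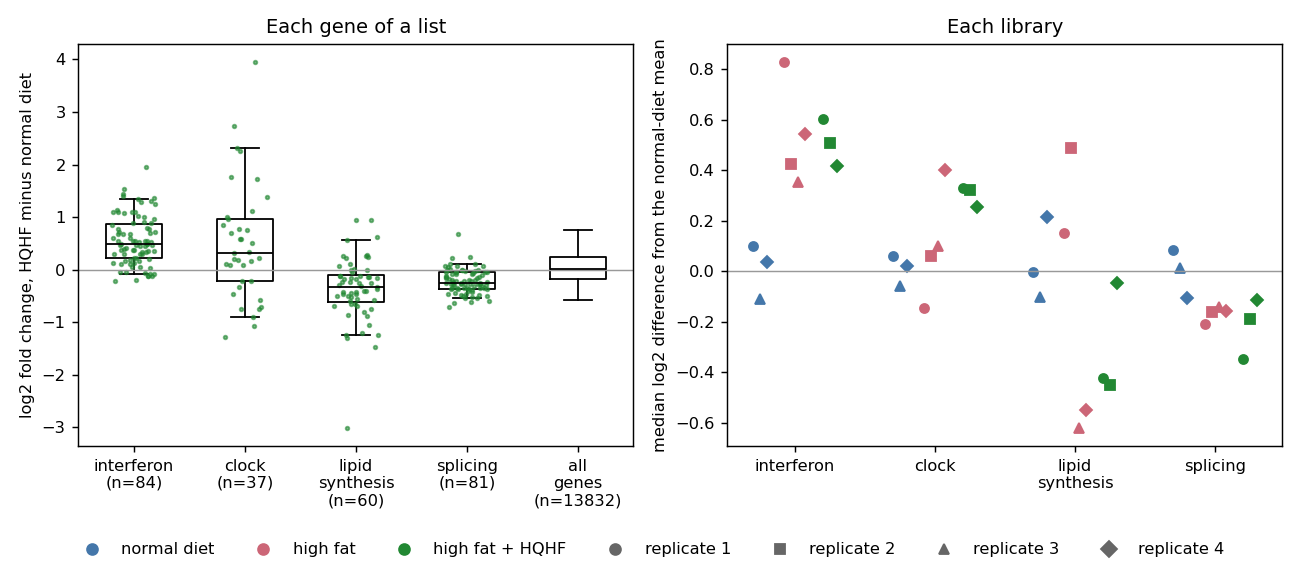
Left, log2 fold change of HQHF minus normal diet for every tested gene of 4 lists (points) and for all 13832 genes, where boxes span the quartiles with the median as a line and whiskers reach the 5th and 95th percentiles. Right, the median log2 difference of each list from the normal-diet mean in each of the 10 liver libraries, coloured by diet and shaped by replicate. The interferon list stood at 0.42 to 0.60 in the formula libraries, and lipid synthesis at -0.05 in formula replicate 4 against -0.42 and -0.45 in the other 2.

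Of the 4 lists, interferon genes had the most members whose formula libraries lay clear of normal diet. Of 85 listed genes 84 were tested and Mx2 had no row in the table. None passed the adjusted test, 35 had an unadjusted p under 0.05, all of them higher under the formula, beside 3.70% of all genes, and 39 had formula libraries wholly above normal diet, beside 8.40% of all genes. No member lay wholly below. DESeq2 called 11 members, all higher. The count of 35 became 20 without normal-diet replicate 3, and stayed between 24 and 39 when any other of the 10 libraries was left out.

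The response element was searched in RefSeq promoters of build GRCm38.p6, windows of 250 bases before to 50 bases after a gene's start, as GAAANNGAAA on both strands. It was found for 29 of the 65 listed interferon genes with a promoter in that table, or 44.6%, and for 3.99% of all 27025 genes there. Formula libraries lay wholly above normal diet for 15 of these 29 genes and for 17 of the rest of the 65, beside 8.40% of all genes. Members without a match thus often lay above normal diet as well. A match is a description of these letters and not of a bound site. The promoters of Ifit3 (chr19:34583353-34583436, plus strand), Ifit1 (chr19:34640765-34640833, plus strand) and Isg15 (chr4:156200855-156200916, minus strand) are shown because these genes are described next, with each match in capitals, written 5′ to 3′ and ending before the start of the gene.
Ifit3: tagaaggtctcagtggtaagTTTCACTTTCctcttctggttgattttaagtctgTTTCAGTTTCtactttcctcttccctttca
Ifit1: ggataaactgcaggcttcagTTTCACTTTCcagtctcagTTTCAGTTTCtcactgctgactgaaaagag
Isg15: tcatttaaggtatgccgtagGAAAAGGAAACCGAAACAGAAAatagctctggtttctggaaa
The Ifit3 and Ifit1 stretches hold 2 matches each on the opposite strand, and the Isg15 stretch holds 3 that overlap one another.

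Antiviral effectors were the largest role, with a median log2 fold change of 0.54. Of 39 tested, 19 were higher at an unadjusted p under 0.05, beside 3.70% of all genes. Mx1, an interferon-induced gene, stood at 0.473, 0.384 and 0.635 CPM in normal-diet replicates 1, 3 and 4. In formula replicates 1, 2 and 4 Mx1 stood at 2.04, 2.01 and 1.73 CPM. Its log2 fold change was 1.95 ± 0.32 (SE, 95% interval 1.24 to 2.66, adjusted p = 0.228 by edgeR). The formula libraries were above every normal-diet library and also above the 4 high-fat libraries, which held 1.06 to 1.43 CPM. Mx1 had risen on high fat, by 1.34 on the log2 scale (adjusted p = 0.0122 by edgeR), and formula against high fat stood at 0.61 (adjusted p = 0.142).

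Rtp4, an interferon-induced chaperone-like protein, was at 5.59, 3.33 and 4.95 CPM under normal diet and at 14.4, 12.7 and 9.36 CPM under the formula, a log2 difference of 1.40 ± 0.25 (SE, adjusted p = 0.228 by edgeR). The 4 high-fat libraries, from 5.97 to 8.88 CPM, lay between, and Rtp4 was higher under the formula than on high fat by 0.73 (adjusted p = 0.0479 by edgeR). Ifit3, of the Ifit1 family, was at 4.67, 4.61 and 5.65 CPM under normal diet and at 14.4, 10.4 and 10.6 under the formula. Its log2 difference was 1.25 ± 0.23 (SE, adjusted p = 0.241 by edgeR). Its high-fat libraries, 5.18 to 8.68 CPM, were all below the formula libraries, with a difference of 0.63 (adjusted p = 0.0572). Ifit3 and its neighbour Ifit3b are near copies, and reads that fit both cannot be assigned to either.

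Ifit1, which binds viral RNA caps, stood at 1.89, 2.97 and 2.06 CPM under normal diet and at 7.72, 7.30 and 5.20 CPM under the formula, 1.54 ± 0.34 on the log2 scale. Oasl1, of the oligoadenylate synthetase family, stood at 4.15, 4.997 and 5.33 CPM and at 10.7, 8.06 and 13.3 CPM in the same order, a difference of 1.14 ± 0.24 (SE). The groups did not overlap for either gene, and both had an adjusted p of 0.44 by edgeR. Isg15, a ubiquitin-like protein attached to other proteins, was at 1.31, 1.26 and 1.97 CPM under normal diet and at 3.02, 4.20 and 1.86 under the formula. Its formula replicate 4 lay inside the normal-diet range, and the estimate was 1.00 with a 95% interval of 0.27 to 1.74.

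**Figure D2:**
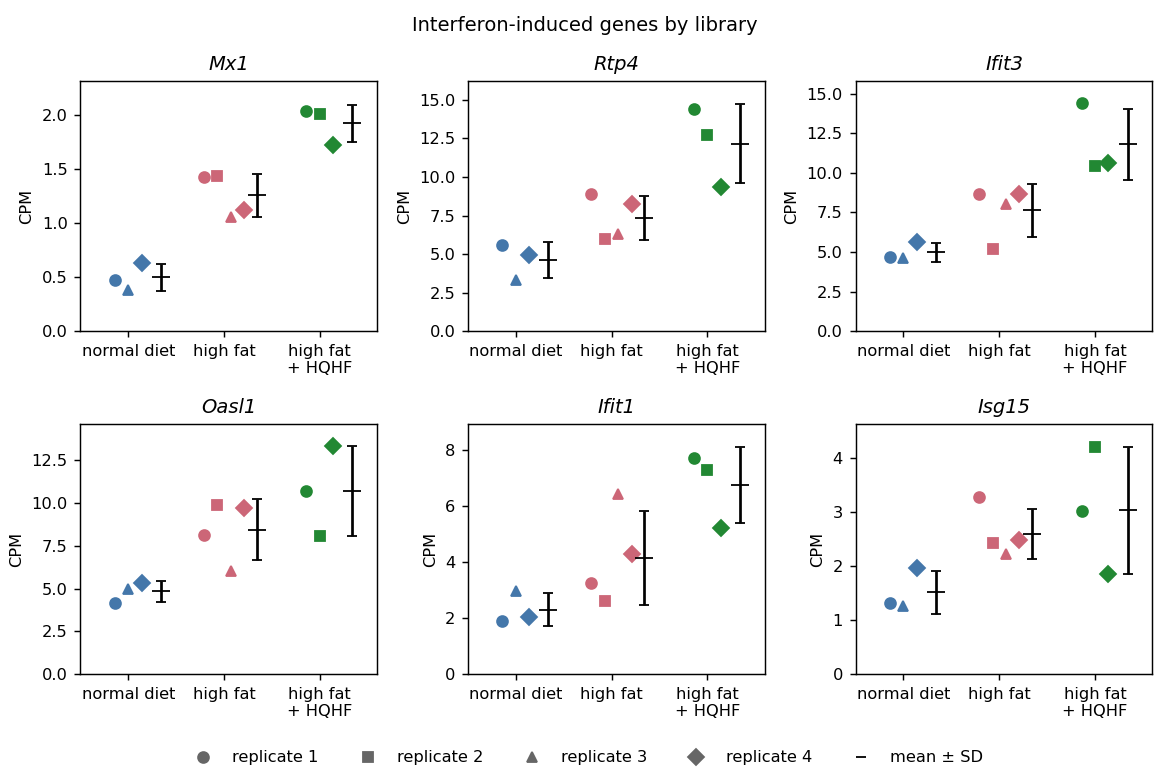
CPM of 6 interferon-induced genes in each of 10 liver libraries, with points shaped by replicate and bars for the mean ± SD of each diet group. Formula libraries lay above all normal-diet libraries for Mx1, Rtp4, Ifit3, Oasl1 and Ifit1, and Isg15 overlapped at 1.86 CPM in formula replicate 4.

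The negative regulators of the pathway also stood above normal diet, and all 3 had formula libraries clear of it, beside 8.40% of all genes. Usp18, which removes ISG15 from proteins and blocks the interferon receptor, was at 2.81, 2.41 and 4.32 CPM under normal diet, 7.92 to 10.02 CPM on high fat and 9.22, 4.75 and 9.68 CPM under the formula. Its difference from normal diet was 1.31 ± 0.29 (SE, adjusted p = 0.44 by edgeR) under the formula and 1.52 (adjusted p = 0.00597) on high fat. Socs1 and Socs3, inhibitors of JAK kinases chosen after their values were seen, stood at 1.29 and 1.44.

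Among transcription factors, 4 of 10 had formula libraries wholly above normal diet, beside 8.40% of all genes. Irf7, the factor that amplifies interferon production, overlapped, with 15.3, 19.9 and 32.2 CPM under normal diet against 47.5, 35.4 and 25.4 under the formula, and an estimate of 0.69 (-0.01 to 1.39). Irf9 and Stat2, chosen after their values were seen, encode parts of the factor that binds the response element. Irf9 was at 24.3, 16.8 and 23.1 CPM under normal diet, 15.2 to 20.4 on high fat and 34.4, 31.1 and 37.1 under the formula. It lay above both other groups in every formula library, with 0.67 ± 0.17 (SE, adjusted p = 0.467 by edgeR) from normal diet and 0.95 (adjusted p = 0.0063) from high fat, and it had not passed on high fat (-0.27, adjusted p = 0.225). Stat2 stood at -0.04 with an interval of -0.47 to 0.38.

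Members of the remaining roles were counted the same way. Of 13 guanylate-binding and immunity-related GTPases 6 lay wholly above, of 7 sensors of RNA and DNA 3, of 6 antigen presentation genes 2, and of 4 receptors 2. Among all genes 8.40% lay wholly above. The 2 chemokines, Cxcl9 and Cxcl10, which attract T cells, overlapped and stood at 0.33 and 0.10, with intervals of -1.23 to 1.88 and -1.32 to 1.52.

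Side by side with the other comparisons, which share libraries with this one, the interferon list had a median of 0.60 on high fat against normal diet, where 27 members rose and 3 fell (16.3% and 9.89% of all genes), and of 0.03 for formula against high fat, where 5 rose and 3 fell (7.85% and 11.1% of all genes). Markers of immune cells, which also express these genes, were summed in the same libraries. Kupffer cell markers took 0.0389 to 0.0483% of counts under normal diet and 0.0446 to 0.0632% under the formula, with 0 of 12 at an unadjusted p under 0.05. The ranges were 0.0039 to 0.0053% and 0.00459 to 0.00516% for 12 monocyte and recruited macrophage markers (3 at an unadjusted p under 0.05, all higher), 0.00388 to 0.0108% and 0.00499 to 0.0175% for 12 T and NK cell markers (0), and 0.00479 to 0.00716% and 0.00611 to 0.00701% for 8 plasmacytoid and dendritic cell markers (0). B and plasma cell markers, 2 of 10 at an unadjusted p under 0.05 and both higher, took 0.000942 to 0.00173% and 0.000885 to 0.00177%. Neutrophil markers took 0.000269 to 0.0003% under normal diet and 0.000367 to 0.000593% under the formula, without overlap, with none of the 6 tested at an unadjusted p under 0.05 and up to 2 of 8 at 0 in a library. No marker of the other 5 lists was at 0 in any of the 6 libraries. Over all genes tested, 3.70% were higher at an unadjusted p under 0.05. By median log2 fold change, as for the interferon list, Kupffer cell markers stood at 0.30 and monocyte and recruited macrophage markers at 0.49. T and NK cell markers stood at 0.55, B and plasma cell markers at 0.59, plasmacytoid and dendritic cell markers at 0.19 and neutrophil markers at 1.01. The part of these markers in the interferon values was not tested.

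Clock genes lay to both sides of normal diet. All 37 were tested, none passed the adjusted test, and 11 were higher and 2 lower at an unadjusted p under 0.05, beside 3.70% and 3.59% of all genes. Formula libraries lay wholly above normal diet for 10 members and wholly below for 5, beside 8.40% and 6.72% of all genes. DESeq2 called 5 members, all higher. The activators had a median of -0.74 and the repressors of 0.81. Formula replicate 4 often stood apart from formula replicates 1 and 2 in these genes. Without it, 15 members were higher and 3 lower at an unadjusted p under 0.05, and the list's median was 0.18 in place of 0.31. The time of day at collection is not in the labels, and its part was not tested.

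E-boxes (CACGTG), bound by CLOCK and BMAL1, were found in the promoters of 7 of 29 clock genes in the RefSeq table, or 24.1%, against 8.09% of all genes there. D-boxes (TTATGTAA), bound by DBP and TEF, were found in 2 of 29, or 6.9%, against 1.11%, and the core AGGTCA of the sites for ROR and REV-ERB receptors in 7, or 24.1%, against 18.1%, all on both strands. Shown are the E-box of Bhlhe41 (chr6:145865548-145865593, minus strand) and the 2 D-boxes of Per3 (chr4:151044796-151044890, minus strand, GRCm38.p6), because these repressors had some of the largest estimates of the list, with matches in capitals.
Bhlhe41: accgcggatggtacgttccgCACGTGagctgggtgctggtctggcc
Per3: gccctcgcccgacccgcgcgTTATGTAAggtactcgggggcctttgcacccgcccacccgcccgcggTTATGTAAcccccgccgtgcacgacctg
No match in another promoter says only that these letters are not in that window.

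All 3 activators had estimates below normal diet. Clock was at 86.0, 88.1 and 64.2 CPM in normal-diet replicates 1, 3 and 4 and at 47.1, 52.6 and 60.8 CPM in formula replicates 1, 2 and 4, a log2 difference of -0.57 ± 0.18 (SE, adjusted p = 0.615 by edgeR). Bmal1 was at 33.1, 26.1 and 16.1 CPM and at 5.54, 4.15 and 21.4 CPM, so formula replicate 4 was inside the normal-diet range and the other 2 were below it, at -1.27 with an interval of -2.69 to 0.14. Npas2, the relative of CLOCK, was at 0.459 and 0.443 CPM in formula replicates 1 and 2, below the normal-diet range of 2.602 to 4.20 CPM, and at 4.94 CPM in formula replicate 4, above it.

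The output factor Dbp had the largest estimate of the list. It stood at 1.16, 1.36 and 3.55 CPM under normal diet and at 31.9, 49.7 and 11.1 CPM under the formula, a log2 fold change of 3.95 ± 0.81 (SE, 95% interval 2.12 to 5.77, adjusted p = 0.44 by edgeR). Every formula library was above every normal-diet library, and the high-fat libraries, from 5.29 to 34.4 CPM, overlapped the formula. Dbp had also risen on high fat, by 3.31 (adjusted p = 0.016 by edgeR). Tef was at 49.5, 58.1 and 59 CPM under normal diet and at 131, 165 and 65.9 under the formula (1.12 ± 0.34, adjusted p = 0.601 by edgeR). Nfil3, which represses the sites that DBP activates, was at 81.5, 50.5 and 56.0 CPM and at 30.0, 35.1 and 49.4 CPM, wholly below, at -0.72 with an interval of -1.64 to 0.21.

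By estimate 7 of 8 repressors were above normal diet, beside 7217 of all 13832 genes. Formula libraries lay wholly above normal diet for 4 repressors, beside 8.40% of all genes. Bhlhe41 was at 0.762, 0.154 and 0.698 CPM under normal diet and at 3.04, 4.67 and 2.98 CPM under the formula, a log2 difference of 2.73 ± 0.65 (SE, adjusted p = 0.464 by edgeR), and on high fat it had risen by 2.88 (adjusted p = 0.0113). Cry2 was at 17.5, 17.1 and 17.6 CPM under normal diet and at 29.0, 25.3 and 30.5 CPM under the formula, at 0.70 ± 0.18 (SE, adjusted p = 0.467 by edgeR). The groups did not overlap for either gene, and in Cry2 formula replicate 4 was no lower than the other 2. Ciart, a partner of the CRY proteins, was at 0.630, 0.333 and 0.190 CPM and at 2.30, 1.46 and 1.86 CPM, at 2.26 ± 0.76 (SE, adjusted p = 0.621 by edgeR).

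Per3, whose promoter holds the D-boxes above, was at 1.58, 1.64 and 2.48 CPM under normal diet and at 11.6, 14.4 and 2.38 under the formula, an estimate of 2.32 ± 0.68 (SE, adjusted p = 0.601 by edgeR). Per2 was at 6.22, 5.41 and 6.19 CPM and at 10.4, 15.1 and 5.07 CPM (0.77, interval -0.18 to 1.73). In both genes formula replicate 4 was at normal-diet level and the other 2 were above it. Per1 was highest in formula replicate 4, with 13.5, 16.6 and 24.6 CPM under normal diet and 15.2, 6.26 and 36.6 under the formula (0.09, interval -1.53 to 1.70), and its sign turned without formula replicate 4 (-0.77) or normal-diet replicate 1 (-0.09). Cry1 was wholly below, at 16.3, 13.6 and 9.96 CPM against 5.94, 7.17 and 8.26 CPM (-0.90, interval -1.92 to 0.12).

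The receptors Nr1d1 and Nr1d2 encode REV-ERB proteins, which repress Bmal1. Nr1d2 was at 25.2, 31.6 and 29.1 CPM under normal diet and at 60.3, 76.7 and 35.5 CPM under the formula, wholly above (1.00 ± 0.25, adjusted p = 0.464 by edgeR). Nr1d1, which shares its end with Thra on the opposite strand, overlapped, at 33, 43.3 and 89.2 CPM against 50.02, 70.1 and 128.9 CPM (0.59, interval -0.48 to 1.66). Among the liver outputs Upp2, a uridine phosphorylase, was at 41.8, 32.9 and 53.0 CPM under normal diet and at 227, 139 and 54.4 CPM under the formula. Its difference was 1.72 ± 0.43 (SE, adjusted p = 0.47 by edgeR) from normal diet and 1.74 (adjusted p = 0.017) from high fat, with formula replicate 4 only just above the normal-diet libraries.

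**Figure D3:**
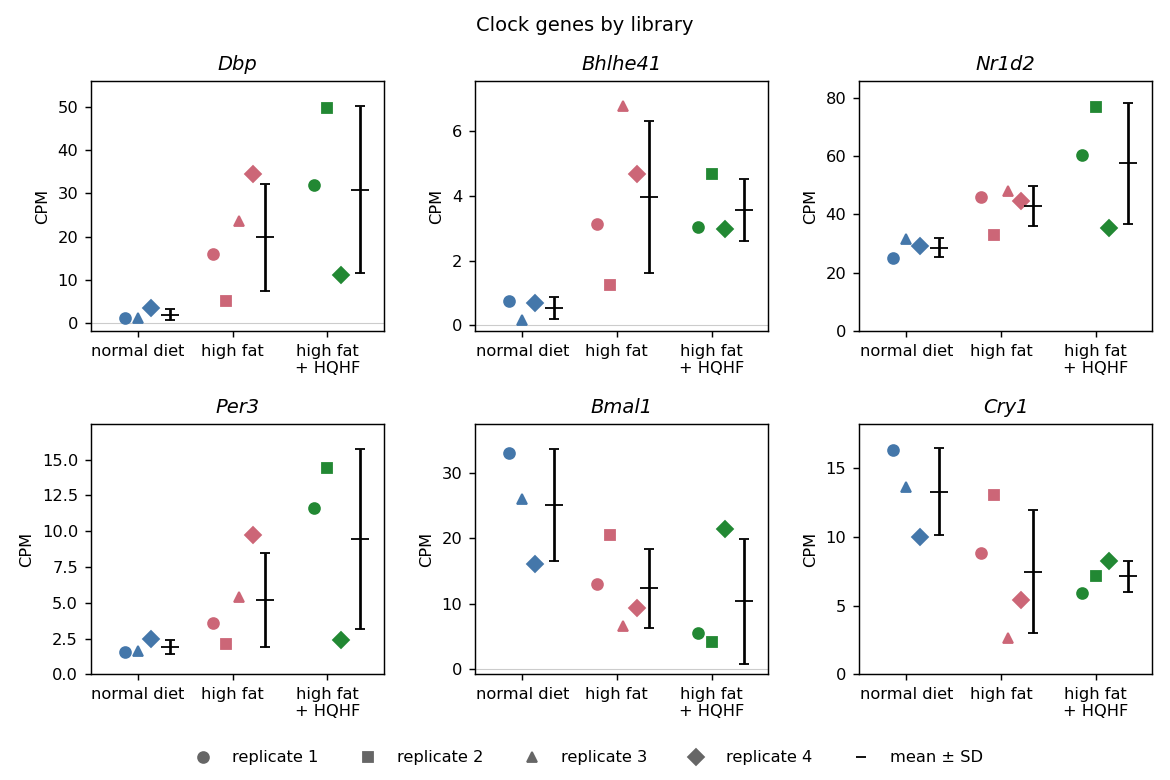
CPM of 6 clock genes in each of 10 liver libraries, with points shaped by replicate and bars for the mean ± SD of each diet group. Dbp, Bhlhe41 and Nr1d2 were above normal diet in all 3 formula libraries, Cry1 was below, and formula replicate 4 (diamond) lay within the normal-diet range for Per3, at 2.38 CPM, and Bmal1, at 21.4 CPM.

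On high fat against normal diet, 6 clock members rose and 5 fell (16.3% and 9.89% of all genes), with a median of 0.09. For formula against high fat 4 rose and 1 fell, with a median of 0.19 (7.85% and 11.1% of all genes). These comparisons share libraries with the one described.

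Lipid synthesis genes lay mostly below normal diet by estimate, 48 of 60 beside 6608 of all 13832 genes, and no member passed the adjusted test. At an unadjusted p under 0.05 stood 2 members, both lower, beside 3.59% of all genes, and DESeq2 called none. Formula libraries lay wholly below normal diet for 11 members and wholly above for 3, beside 6.72% and 8.40% of all genes. The 2 members became 12 without formula replicate 4, 11 of them lower, and 0 without normal-diet replicate 4. Without formula replicate 2 there were 2 again, both higher. They became 1 without normal-diet replicate 1 or without formula replicate 1, and 5 and 8 without high-fat replicates 2 and 3. With the 6 libraries alone there were 12, 11 of them lower, and with all 12 libraries 3, all higher.

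Scd1, the stearoyl-CoA desaturase that makes monounsaturated fatty acids, had the largest difference of the list. It stood at 5525, 5165 and 10590 CPM in normal-diet replicates 1, 3 and 4 and at 92.7, 226 and 2334 CPM in formula replicates 1, 2 and 4, a log2 fold change of -3.004 ± 1.15 (SE, 95% interval -5.59 to -0.42, adjusted p = 0.643 by edgeR). All formula libraries were below all normal-diet libraries, and formula replicate 4 was far above the other 2. Without formula replicate 4 the log2 fold change was -5.48, with all 12 libraries it was -1.17, and every other setting lay between these values. The high-fat libraries held 1926, 1114, 418 and 333 CPM, a difference from normal diet of -2.90 (adjusted p = 0.063). Me1, malic enzyme, which supplies NADPH for fatty acid synthesis, was at 174, 156 and 199 CPM under normal diet and at 65.9, 88.1 and 99.8 CPM under the formula (-1.06 ± 0.44, adjusted p = 0.666 by edgeR), wholly below.

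Of 20 cholesterol synthesis genes, 8 lay wholly below normal diet and 1 wholly above, beside 6.72% and 8.40% of all genes, with a median of -0.43 and none at an unadjusted p under 0.05. Hmgcs1, HMG-CoA synthase, was at 96.6, 99.3 and 82.2 CPM under normal diet and at 44.0, 56.5 and 65.9 CPM under the formula, a log2 fold change of -0.74 with a 95% interval of -1.49 to 0.0039. The groups did not overlap for this enzyme, while its high-fat libraries spread from 42.9 to 115 CPM.

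Sqle, squalene epoxidase, overlapped, with 15.7, 6.20 and 10.5 CPM under normal diet and 3.79, 1.23 and 6.64 under the formula (-1.47, interval -3.35 to 0.41). Mvk, mevalonate kinase, was the member wholly above, at 2.86, 3.18 and 3.94 CPM against 5.92, 4.12 and 5.23 CPM (0.61, interval -0.03 to 1.26). The sterol regulatory element was searched as TCACNCCAC on both strands and found in the promoters of 2 of 46 members in the RefSeq table, or 4.35%, against 1.44% of all genes there. The match of Hmgcs1 (chr13:119690194-119690242, plus strand, GRCm38.p6) is shown in capitals, since it is the cholesterol synthesis gene with the smallest p here.
Hmgcs1: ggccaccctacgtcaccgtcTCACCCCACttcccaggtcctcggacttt

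The regulators and the fatty acid synthesis enzymes overlapped with normal diet. Srebf1, which encodes the SREBP-1 factors, was at 5.83, 19.5 and 22.6 CPM under normal diet and at 21.6, 44.4 and 26.5 CPM under the formula (0.95, interval -0.65 to 2.56). On high fat it had risen by 2.75 (adjusted p = 0.0251 by edgeR), with 22.1 to 188 CPM. Srebf2, the regulator of cholesterol synthesis, stood at -0.41 (-1.13 to 0.32). The enzymes Fasn and Acaca, which build fatty acids, stood at -0.65 (-2.62 to 1.31) and -0.58 (-1.70 to 0.55), and Fasn had 67.3, 88.7 and 133 CPM under normal diet, 34.1, 42.3 and 107 under the formula and 72.4 to 1016 on high fat. The spread of Fasn within each group leaves an interval that holds differences of more than 2-fold either way.

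Acly, which makes acetyl-CoA for both pathways, was at 97.2, 138 and 124 CPM under normal diet and at 93.4, 99.3 and 131 CPM under the formula (-0.15, interval -0.69 to 0.38). It had risen on high fat by 0.73 (adjusted p = 0.0397 by edgeR) and was lower under the formula than on high fat by -0.88 on the log2 scale (adjusted p = 0.0268). Elovl1, an elongase of very long chains, was at 20.5, 21.5 and 18.4 CPM under normal diet and at 13.4, 11.7 and 18.4 under the formula, overlapping at replicate 4 (-0.47, interval -0.97 to 0.03).

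**Figure D4:**
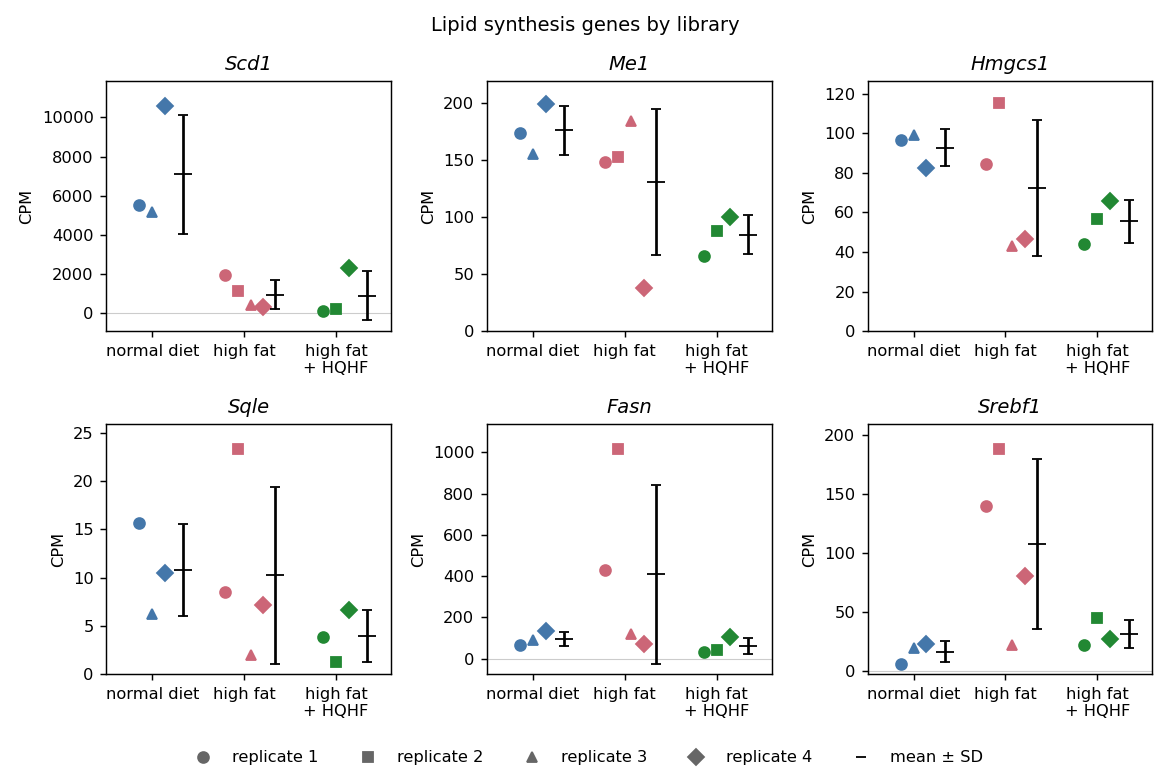
CPM of 6 lipid synthesis genes in each of 10 liver libraries, with points shaped by replicate and bars for the mean ± SD of each diet group. Scd1, Me1 and Hmgcs1 were below normal diet in all 3 formula libraries, Sqle, Fasn and Srebf1 overlapped, and formula replicate 4 (diamond) held the highest formula value for Scd1, at 2334 CPM.

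The high-fat livers differed from normal diet at 7 members of this list that were higher and 7 that were lower (16.3% and 9.89% of all genes), with a median of -0.09. For formula against high fat 6 were higher and 8 lower (7.85% and 11.1% of all genes), with a median of -0.28. These comparisons share libraries with the one described.

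Splicing genes lay below normal diet by small amounts across many members. Of 82 listed genes 81 were tested, Srsf12 was below the count filter, and none passed the adjusted test. By estimate 71 were below normal diet, beside 6608 of all 13832 genes, and the lowest member stood at -0.71 on the log2 scale. At an unadjusted p under 0.05 stood 17 members, 16 lower and 1 higher, beside 3.59% and 3.70% of all genes, and formula libraries lay wholly below normal diet for 18 and wholly above for 1, beside 6.72% and 8.40%. DESeq2 called 2 members, both lower. The 17 became 8 without formula replicate 1, 11 without normal-diet replicate 1 or 3, and 9 without TMM scaling.

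Srsf2, an SR protein that promotes exon inclusion, had the smallest p. It was at 34.4, 36.5 and 38.6 CPM in normal-diet replicates 1, 3 and 4 and at 19.8, 25.4 and 25.1 CPM in formula replicates 1, 2 and 4, a log2 fold change of -0.64 ± 0.14 (SE, 95% interval -0.95 to -0.33, adjusted p = 0.44 by edgeR). On the TMM scale the 4 high-fat libraries, at 22.9 to 27.7 CPM, were also all below normal diet. There Srsf2 had fallen by 0.51 (adjusted p = 0.0185 by edgeR). Srsf6 was at 55.9, 72.8 and 51.2 CPM under normal diet and at 37.7, 36.3 and 44.3 CPM under the formula (-0.60 ± 0.18, adjusted p = 0.601 by edgeR).

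Srsf5 was the SR gene wholly above normal diet, at 36.5, 55.4 and 41.2 CPM against 58.8, 62.4 and 92.2 CPM (0.68 ± 0.22, adjusted p = 0.621 by edgeR). With all 12 libraries in the fit its sign turned, to -0.54. Srsf3 and Srsf7, whose own transcripts are under SR protein control, overlapped with normal diet and stood at -0.05 (-0.53 to 0.42) and -0.09 (-0.51 to 0.33). The kinases Clk1 and Clk4, which phosphorylate SR proteins, overlapped too and stood at -0.27 (-0.83 to 0.29) and -0.08 (-0.58 to 0.43).

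Of 24 hnRNP genes, with a median of -0.27, 22 lay below normal diet by estimate, beside 6608 of all 13832 genes. Of the hnRNP genes 6 were lower at an unadjusted p under 0.05, beside 3.59% of all genes. Hnrnpl, which binds CA repeats, was at 132, 129 and 156 CPM under normal diet and at 95.5, 71.8 and 106 CPM under the formula (-0.61 ± 0.17, adjusted p = 0.568 by edgeR). Hnrnpab was at 127, 114 and 107 CPM and at 77.2, 94.5 and 81.2 CPM (-0.46 ± 0.14, adjusted p = 0.601 by edgeR). Both were below normal diet in each formula library. Pcbp2, a poly(C)-binding protein, was at 259, 282 and 312 CPM and at 185, 205 and 203 CPM (-0.52 ± 0.16, adjusted p = 0.601 by edgeR), and it had fallen on high fat by 0.50 (adjusted p = 0.0306). Hnrnpa2b1 overlapped, at -0.26 (-0.74 to 0.21). Of the 16 core spliceosome genes 4 lay wholly below and none above, beside 6.72% and 8.40% of all genes, with a median of -0.28.

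**Figure D5:**
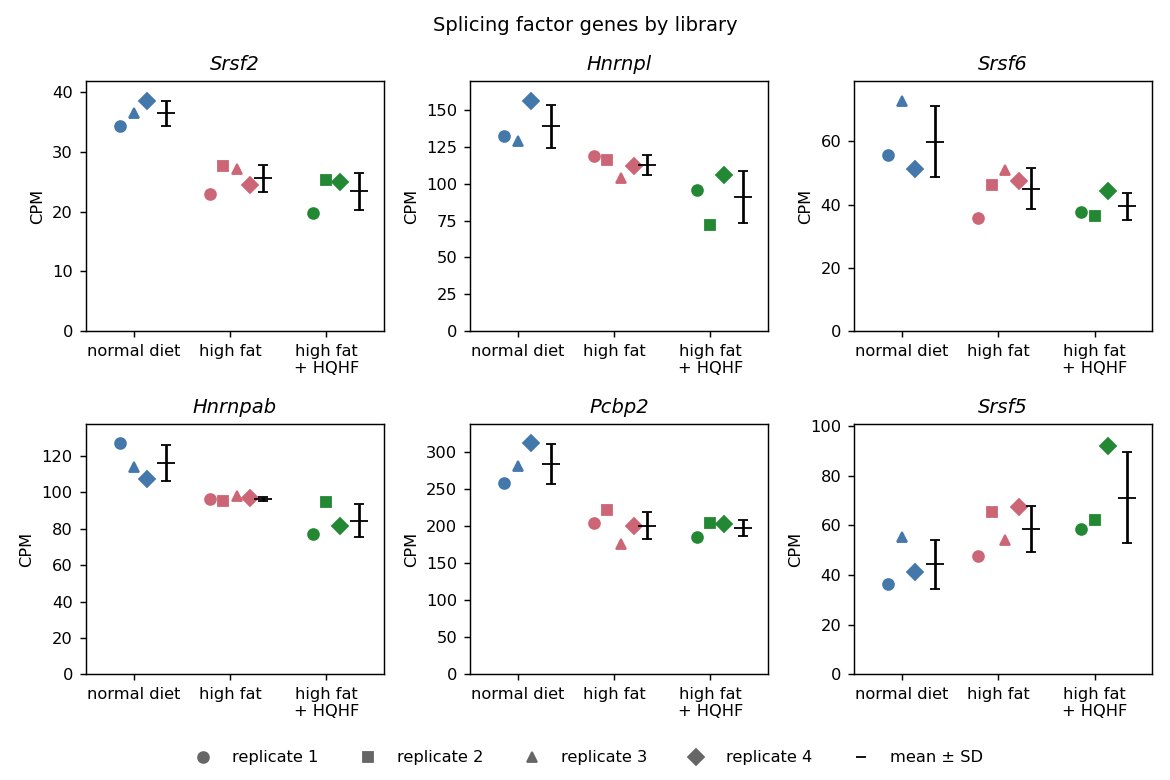
CPM of 6 splicing factor genes in each of 10 liver libraries, with points shaped by replicate and bars for the mean ± SD of each diet group. Srsf2, Hnrnpl, Srsf6, Hnrnpab and Pcbp2 were below normal diet in all 3 formula libraries, and Srsf5 was above it, at 58.8 to 92.2 CPM.

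On high fat against normal diet 7 splicing members fell and none rose by the edgeR test (9.89% and 16.3% of all genes), where the list's median was -0.15. For formula against high fat 2 rose and 1 fell (7.85% and 11.1% of all genes), with a median of -0.04. The comparisons share libraries. As a share of library totals, without TMM, the list took 0.391 to 0.485% of counts under normal diet and 0.548 to 0.617% on high fat. The direction on high fat thus depends on the measure. In formula replicates 1, 2 and 4 that share was 0.332, 0.393 and 0.43%, so replicates 2 and 4 lay within the normal-diet range. The list's median difference from the normal-diet mean was -0.35, -0.19 and -0.12 in these libraries and -0.10 to 0.08 in the normal-diet libraries.

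Further lists cover liver functions and other cells that high fat had moved, and their 3 comparisons share libraries. Of 24 fatty acid oxidation genes 12 had fallen on high fat, beside 9.89% of all genes (median -0.91), and 7 were higher under the formula than on high fat, beside 7.85% (median 0.81). For formula against normal diet the median was -0.14, edgeR called none, 1 was lower at an unadjusted p under 0.05, beside 3.59% of all genes, and 6 lay wholly below normal diet, beside 6.72%. The gene at an unadjusted p under 0.05, Pdk4, chosen after its values were seen, encodes the kinase that blocks pyruvate oxidation. It was at 111, 74.2 and 97.2 CPM under normal diet, 14.4 to 64.5 on high fat and 20.6, 15.6 and 17.3 under the formula, a difference from normal diet of -2.40 ± 0.54 (SE, adjusted p = 0.461 by edgeR). A fit of the 6 libraries alone called it (adjusted p = 0.00459 by edgeR) and no other gene.

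Matrix and fibrosis genes had a median of 2.55 on high fat, where 14 of 19 rose, beside 16.3% of all genes. The median was -2.36 for formula against high fat, where 15 fell, beside 11.1%, and 0.28 for formula against normal diet, where 3 lay wholly above, beside 8.40%. Monocyte and recruited macrophage markers had medians of 3.08 (11 of 12 rose, beside 16.3% of all genes), -2.81 (10 fell, beside 11.1%) and 0.49 in the same order. Trem2, the lipid receptor of macrophages in fatty liver, was chosen after its values were seen. It was at 0.131, 0.282 and 0.286 CPM under normal diet, 4.69 to 13.0 on high fat and 1.21, 0.574 and 0.915 under the formula, wholly above normal diet and below high fat. Its difference from normal diet was 1.94 with a 95% interval of 0.91 to 2.97 (adjusted p = 0.464 by edgeR), and it fell against high fat by 3.32 (adjusted p = 0.0021).

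Other stress and hepatocyte lists had medians at or below normal diet. Of 19 heat shock genes 5 were lower at an unadjusted p under 0.05, beside 3.59% of all genes, and 11 had fallen on high fat, beside 9.89%, with medians of -0.27 and -0.75. The 13 mitochondrially encoded transcripts had a median of -0.73, with 6 lower at an unadjusted p under 0.05, beside 3.59%, and formula replicate 2, at 5.65% of counts, lay within the normal-diet range. The 18 bile acid genes had a median of -0.41, the 18 genes of ER stress -0.40, and the 16 male-biased liver genes 0.02 after -2.17 on high fat.

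The design text places the study's interest in ferroptosis, an iron-dependent death by lipid peroxidation. Of 21 tested drivers 2 were higher at an unadjusted p under 0.05, and of 26 suppressors 1 was higher and 3 lower, beside 3.70% higher and 3.59% lower among all genes, and none was called by edgeR. Gpx4, which reduces lipid peroxides, was at 155, 191 and 393 CPM under normal diet and at 282, 272 and 223 CPM under the formula (0.07, interval -0.61 to 0.76), with normal-diet replicate 4 far above the other 2. Acsl4, which loads membranes with polyunsaturated fatty acids, was at 65.4, 44.8 and 44.8 CPM and at 38.3, 26.8 and 47.8 CPM (-0.46, interval -1.01 to 0.09), and it was lower than on high fat by -1.18 on the log2 scale (adjusted p = 0.0115 by edgeR). Slc7a11, the cystine importer, had 4 reads in the 3 normal-diet libraries and 1 in the 3 formula libraries, too few for a fold, against 0.608 to 5.96 CPM on high fat (adjusted p = 0.00394 by edgeR for formula against high fat).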

How the data were processed

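Long RNA counts per gene were deposited by the authors as whole numbers without normalization, per the file headers and values. The submitters' processing notes name HISAT2, RSEM and GRCm39, with no version or role, and how reads were counted is not given in the sources used here. Of 18314 entries 18227 have Ensembl IDs, 18160 of them matched to the reference names. Counts were fitted in R 4.3.3 with edgeR 4.0.16 (filterByExpr, TMM, robust quasi-likelihood, 3 group means) on 10 liver libraries, 3 normal diet, 4 high fat and 3 formula, so that the groups share 1 estimate of spread, and p-values were adjusted over 13832 genes by Benjamini-Hochberg at 0.05. The fit was tested on simulated data. Intervals are 95%, and sampling error of counts sits within the spread between mice.

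The members and lists were chosen with earlier results of these data known. Named genes are the 5 with the smallest p of each of the 4 lists and a set of well-known members. A further part of the rule, for genes past the adjusted threshold, yielded none, and other genes are marked as chosen after their values were seen. Alternatives were DESeq2 1.42.0, RLE scaling, library totals, other count filters, the 6 libraries alone, all 12 libraries, a replicate block, a 2-fold minimum and leaving out each library. Motifs were searched and figures drawn in Python with matplotlib. The small RNA libraries were not used here. Some items are not reported here.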

Additional observations from a re-analysis of the deposited data

Results flagged for a closer look

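Among 62 genes examined for a library far from the rest of its group of 4, 1 was found: Ciart, the clock repressor, stood at 4.93 CPM in high-fat replicate 4 and at 0.643 to 1.11 CPM in the other 3 high-fat libraries. Chance alone marks about 1 group in 20. Transcripts of fat were examined in the 2 libraries that the comparison left out. Adipoq, the adipocyte hormone, was at 4540 CPM of the library total in normal-diet replicate 2 and at 1250 CPM in formula replicate 3, against at most 0.858 CPM in the 3 kept normal-diet libraries. Ucp1, the uncoupling protein of brown fat, was at 4040 CPM in formula replicate 3 and at 0 in normal-diet replicate 2. High-fat replicate 3, which was kept in the model and in the comparisons with high fat, held 41.2 CPM of Adipoq, 32 CPM of Plin1, the droplet coat protein of adipocytes, and 10.7 CPM of Ucp1, and their part in those comparisons was not tested.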

How the results depend on the processing

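The count of 0 genes passing the adjusted test held with RLE scaling, library totals, no filter and a stricter filter. It also held with all 12 libraries, the replicate block and each of the 10 libraries left out in turn. A 2-fold minimum, which can only remove calls, could give no other count than 0. DESeq2 called 72 genes (46 higher, 26 lower, 18 in the 4 lists), and the 6 libraries alone called 1, which was lower. The cause was not tested. The sign of 54 of 62 named genes held in every setting. With all 12 libraries it turned for Per1 (-0.054), Acly (0.28), Fasn (1.07) and Srsf5 (-0.54). With 1 library left out, log2 fold changes ranged from -0.77 to 0.51 for Per1, -0.22 to 0.050 for Srsf3, -0.17 to 0.58 for Gpx4, -0.16 to 0.035 for Srsf7 and -0.30 to 0.16 for Clk4. The replicate numbers were not treated as pairs in the main fit. Deviations of same-numbered libraries from their group means correlated at -0.05 to 0.12 over 8 pairs. Those of libraries with different numbers correlated at -0.18 to 0.13 over 25 pairs. A shared factor that acts on few genes would not show in such correlations. The replicate block called 0 genes, left 930 at an unadjusted p under 0.05, 8 of them lipid synthesis genes, all lower, and turned Per1 (-0.16) and Srsf3 (0.045). With all 12 libraries the interferon median was 0.24 and 12 members had an unadjusted p under 0.05. With 3 normal-diet and 3 formula libraries, small differences were not detectable. After adjustment over 13832 genes, differences whose 95% interval excluded 0, such as that of Mx1 (1.24 to 2.66), were not called either.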
